A study of Mus musculus with 4 samples.

Results

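The genes described here encode the machinery that copies DNA in S phase. They are 38 genes of the array, taken by gene name from the 29353 named genes on it, with the older names Cdc45l, Orc1l and Orc6l read as Cdc45, Orc1 and Orc6. By role, 11 of them license origins, 5 fire origins, 15 work at the replication fork, 4 supply nucleotides and 3 restore chromatin behind the fork. They were carried by 49 probes, and 9 of the genes had more than 1 probe. All 38 were well above background on all 4 arrays and none was saturated, so that every member had a measured level in every sample and no filter removed any.

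Expression was measured on 4 single-colour Agilent mouse arrays of cells sorted from the bone marrow of C57BL6/J mice, given in the labels as 7 weeks of age. LSK cells, which lack lineage markers and carry Sca-1 and c-kit, the fraction that holds blood stem and early progenitor cells, were taken at day 10 from recipients that had received 700 cGy of radiation and 30000 LSK cells, and at day 0 from healthy mice. CD45-negative cells, which the submitters sorted as marrow stroma, were taken at the same day 10 from such recipients and at day 0 from healthy mice. Donors carried the CD45.2 and recipients the CD45.1 form of the leukocyte antigen CD45, and the labels write the stromal sort both as CD45.1-negative and as CD45-negative, so which form was gated out is not settled; the sex of the mice and any pooling of animals are not stated. The study's design text places the strongest stem cell proliferation at day 10. Each group had 1 array, so no difference below has a test, a standard error or a p-value, and a 2-fold difference is a size and not a test. Whether a population held fewer cells of a type or cells with less RNA of a gene cannot be told apart in such bulk samples.

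Replication is prepared in G1, when the origin recognition complex (Orc genes) with Cdc6 and Cdt1 loads the ring of Mcm2 to Mcm7 onto DNA. This step is called licensing, and geminin (Gmnn) blocks it once S phase has begun. The kinase Cdc7, with Mcm10, Cdc45 and the GINS complex, then turns the loaded rings into active helicases, and the polymerases, the sliding clamp Pcna and the nucleotide enzymes follow. Many of these genes are known targets of the E2F transcription factors, which switch them on at the passage from G1 to S. In marrow, dividing erythroblasts and committed progenitors are known to replicate actively, while most stem cells are quiescent.

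The E2F recognition words TTTCCCGC, TTTCGCGC, TTTGCCGC and TTTGGCGC were searched on both strands in the RefSeq windows around each gene's start site (build GRCm38.p6, 250 bases before to 50 after it), which were found for 32 of the 38 members. At least 1 word was found for 13 of the 32 members (40.6%), against 704 of 27025 genes with a window (2.6%) and 431 of the 8682 genes above background on all 4 arrays (4.96%). The 4 upstream stretches below, each of 250 bases and written 5′ to 3′ in the direction of the gene, were chosen because their genes span the differences reported below. Orc1 (chr4:108579204-108579453, plus strand) and Cdc6 (chr11:98907901-98908150, plus strand) had the largest differences between days in CD45-negative cells among the members with a word. Mcm6 (chr1:128359706-128359955, minus strand) had the most words and a small difference, and Tk1 (chr11:117826015-117826264, minus strand) had the largest difference of all and no word in its window. Capitals mark the E2F words, on either strand, and the first capital run of Mcm6 holds 2 words that overlap.
Orc1: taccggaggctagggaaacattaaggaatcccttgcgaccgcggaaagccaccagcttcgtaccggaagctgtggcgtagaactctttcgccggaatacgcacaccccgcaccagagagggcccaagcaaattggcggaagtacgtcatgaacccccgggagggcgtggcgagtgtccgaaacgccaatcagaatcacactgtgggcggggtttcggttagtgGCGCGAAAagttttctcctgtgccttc
Cdc6: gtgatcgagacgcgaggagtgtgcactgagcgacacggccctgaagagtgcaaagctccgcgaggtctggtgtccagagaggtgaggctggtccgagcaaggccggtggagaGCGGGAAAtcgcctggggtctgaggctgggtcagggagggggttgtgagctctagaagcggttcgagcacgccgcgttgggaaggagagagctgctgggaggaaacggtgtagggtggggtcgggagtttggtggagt
Mcm6: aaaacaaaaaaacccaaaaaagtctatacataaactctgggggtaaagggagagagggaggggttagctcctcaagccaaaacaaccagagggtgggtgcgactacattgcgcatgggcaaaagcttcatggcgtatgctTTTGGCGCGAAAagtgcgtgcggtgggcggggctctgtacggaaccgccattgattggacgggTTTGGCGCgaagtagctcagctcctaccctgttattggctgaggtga
Tk1: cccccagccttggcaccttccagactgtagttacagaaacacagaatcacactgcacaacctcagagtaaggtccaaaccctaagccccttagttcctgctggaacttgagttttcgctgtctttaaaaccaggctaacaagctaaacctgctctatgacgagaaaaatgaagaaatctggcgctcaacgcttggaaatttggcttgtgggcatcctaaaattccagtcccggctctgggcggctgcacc
Counted from the start site in the direction of the gene, the words began at -27 in Orc1, at -138 in Cdc6 and at -110, -106 and -47 in Mcm6. A match describes the letters and not a bound site, and the absence of a word says only that these letters are not in the window.

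A level here is the log2 processed signal of a gene's probe after the 75th percentile of the array is subtracted. They are compared between arrays for a gene and never between genes, because each probe has its own brightness. CD45-negative cells of healthy mice, at day 0, had the highest level of the 4 arrays for 31 of the 38 genes. CD45-negative cells of day 10 were highest for 3 genes, and LSK cells of day 10 and of day 0 for 2 genes each. The lowest level lay in LSK cells of day 10 for 15 genes, in LSK cells of day 0 for 12, in CD45-negative cells of day 10 for 10 and in CD45-negative cells of day 0 for 1. The median level over the 38 genes was 3.63 in LSK cells at day 10 and 3.54 at day 0, and 3.60 in CD45-negative cells at day 10 and 4.73 at day 0. Thus, on this scale, 3 of the arrays had much the same median, and the CD45-negative cells of healthy mice stood above them. The order depends on the scaling. Scaled to 5 spike-in probes instead, all 38 genes were at least 2-fold higher in CD45-negative cells at day 10 than at day 0. So were 13761 of all 14509 measured genes. The counts of highest and lowest levels were not taken over all genes.

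**Figure D1:**
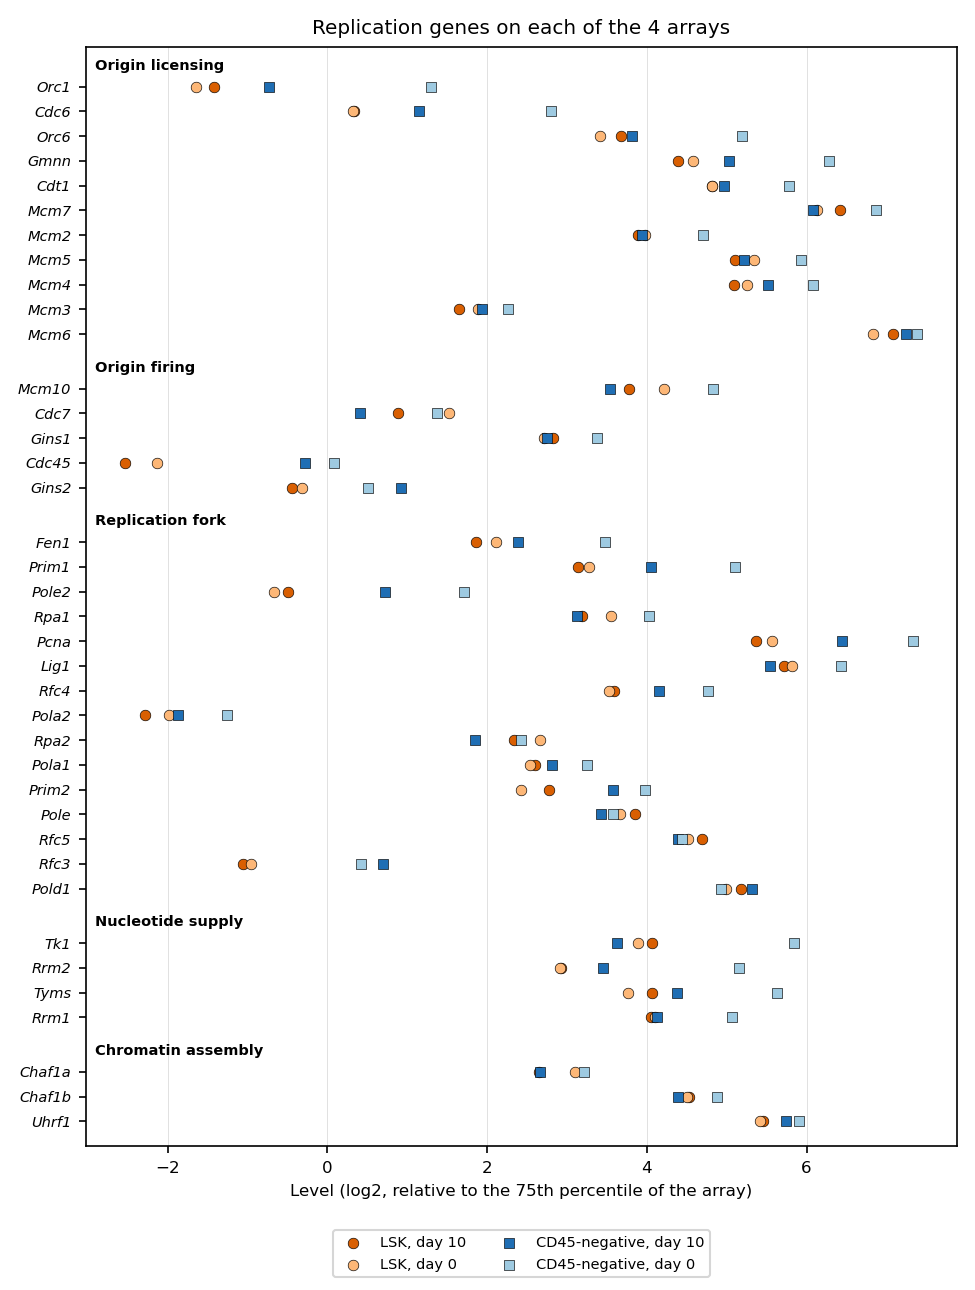
Level of each of the 38 replication genes on the 4 arrays, as log2 signal relative to the 75th percentile of the array on the horizontal axis, 1 point per array with no error bar because each group has 1 array. The pale squares of CD45-negative cells at day 0 are the rightmost point for 31 genes; points are to be compared along a row and not between rows.

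The only measure of error in the files is technical. Probes printed more than once on an array varied with an SD of 0.14 to 0.21 log2 units within an array, over 26 to 31 such probes. A difference between 2 arrays therefore carries an SD of 0.23 for LSK cells between days, 0.27 for CD45-negative cells between days, and 0.26 at day 0 and 0.24 at day 10 between the populations. Replicate spots share an RNA and a labelling, so this spread leaves out the variation between mice. A difference within 2 of these SDs is called within spot error here.

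Between days, the replication genes differed mainly in the CD45-negative cells, where they were lower at day 10 than at day 0. Their median difference, day 10 minus day 0, was -0.73, beside 0.19 for the 14509 named genes measured on both arrays. Of the 38 genes, 35 were lower at day 10 and 3 were higher, beside 6327 lower and 8182 higher of all measured genes. By more than 2 spot SDs (0.53), 26 were lower and none was higher. These counts past spot error were not taken over all genes. At least 2-fold lower were 10 genes (26.3%), against 17.9% of all measured genes, and at least 2-fold higher were 0, against 23.6% of all measured genes. Those 10 were Orc1, Orc6, Cdc6, Gmnn, Mcm10, Prim1, Fen1, Rrm2, Tyms and Tk1. The direction depends on the scaling of the arrays. Scaled to 5 spike-in probes, each difference gained 3.36 and the members' median became 2.63. All 38 genes were then at least 2-fold higher, beside 13761 of all 14509 measured genes. The gap between the members' median and that of all genes, -0.92, is the same under any such shift, and the differences are best read against that gap. With normexp background correction 4 of the 38 members were at least 2-fold lower, beside 1999 of all 14509 measured genes. That share of the members is no larger than that of all genes.

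**Figure D2:**
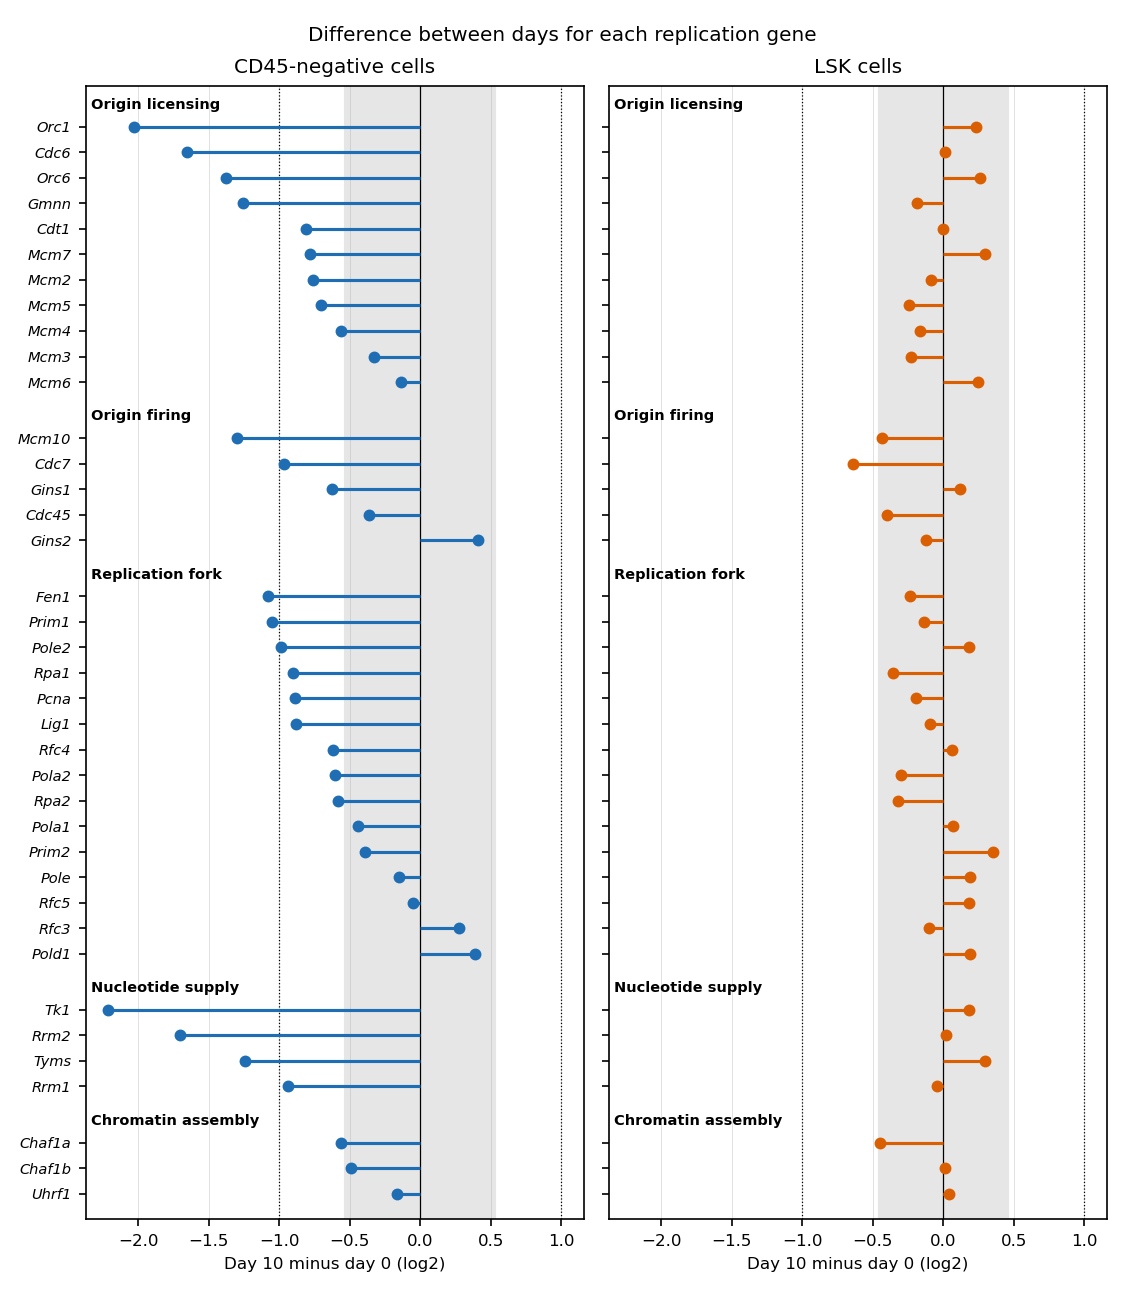
Difference between days (day 10 minus day 0, log2, horizontal axis) of each replication gene in CD45-negative cells and in LSK cells, 1 line per gene and no error bar; the grey band is 2 SDs of the difference between replicate spots and the dotted lines are 2-fold. In CD45-negative cells 26 genes lie left of the band, and in LSK cells 37 of 38 lie inside it. These counts were not taken over all genes.

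Among the 11 licensing members, Orc1, Orc6, Cdc6, Gmnn and Cdt1 differed most in CD45-negative cells, and the genes of the helicase ring differed less. The further origin recognition subunits did not all share this. By the brightest probe of each, Orc2 differed by -0.66, Orc3 by 0.57, Orc4 by -0.08 and Orc5 by -1.83. Orc1, the largest subunit of the origin recognition complex, had a level of -0.73 in CD45-negative cells at day 10, against 1.30 at day 0, and of -1.41 and -1.65 in LSK cells at day 10 and day 0. It was 4.08-fold lower at day 10 in the CD45-negative cells, and the LSK arrays both lay below either of them. Cdc6, the ATPase that helps to load the Mcm ring, had levels of 1.15 and 2.80 in CD45-negative cells at day 10 and day 0, and of 0.33 and 0.32 in LSK cells. This was 3.15-fold lower at day 10 in CD45-negative cells, and its other probe gave a log2 difference of -1.85 there, beside -1.66 for the brighter probe. In LSK cells the 2 probes did not agree, with -0.64 for the other probe and 0.01 for the brighter one.

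Orc6, another origin recognition subunit, stood at 3.81 in CD45-negative cells at day 10 and 5.19 at day 0, and at 3.67 and 3.41 in LSK cells at day 10 and day 0. Gmnn, which encodes geminin, the inhibitor of Cdt1, stood at 5.02 and 6.28 in CD45-negative cells at day 10 and day 0, and at 4.39 and 4.58 in LSK cells. Their folds between days in CD45-negative cells were 2.59 and 2.39, both lower at day 10, so the loader genes and the inhibitor of loading had the same direction. Cdt1, the partner of Cdc6 in loading, was 1.75-fold lower (4.97 at day 10 and 5.78 at day 0) and had equal levels of 4.81 on both LSK arrays.

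The 6 genes of the ring were all lower in CD45-negative cells at day 10, by -0.78 to -0.14 on the log2 scale, and none reached 2-fold. Mcm7, at 6.08 in CD45-negative cells at day 10 and 6.87 at day 0, and Mcm2, at 3.94 and 4.70, were 1.72-fold and 1.69-fold lower. Mcm5 was 1.63-fold and Mcm4 1.48-fold lower. Mcm3 (-0.33) and Mcm6 (-0.14) lay within spot error, although Mcm6 forms a ring with the other 5. The 5 members that bind origins, load the ring or restrain loading had log2 differences of -2.03 to -0.81. Of the 5, 4 were at least 2-fold lower, beside 17.9% of all measured genes.

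Of the 5 origin firing genes, Mcm10 had the largest difference by the brightest probe of each gene, while Cdc7 had the largest when the probes of a gene were averaged. Mcm10, a helicase activator that binds DNA at the start of unwinding, stood at 3.53 in CD45-negative cells at day 10 and 4.83 at day 0, and at 3.78 and 4.21 in LSK cells, which made it 2.46-fold lower at day 10 in CD45-negative cells. Cdc7, the kinase that phosphorylates the Mcm ring, stood at 0.41 and 1.37 in CD45-negative cells at day 10 and day 0, and at 0.88 and 1.52 in LSK cells. Its 3 probes differed in size, with log2 differences in CD45-negative cells of -0.97, -2.24 and -1.29, the widest spread of any member, and all were lower at day 10. Gins1 was 1.54-fold lower in CD45-negative cells, with -0.63 and -0.61 for its 2 probes. Cdc45, the helicase cofactor, differed by -0.36 and Gins2 by 0.41, both within spot error, so that within the GINS complex the difference of Gins1 minus that of Gins2 was -1.04.

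At the fork, 13 of the 15 genes were lower in CD45-negative cells at day 10, beside 6327 of all 14509 measured genes. Only 2 of the 15 were at least 2-fold lower, a share no larger than the 17.9% of all measured genes. That count is therefore not a result about the fork genes. Fen1, the flap endonuclease that trims Okazaki fragments, stood at 2.39 in CD45-negative cells at day 10 and 3.47 at day 0, and at 1.87 and 2.11 in LSK cells, and was 2.12-fold lower at day 10 in CD45-negative cells. Prim1, the catalytic subunit of primase, stood at 4.05 and 5.10 in CD45-negative cells and at 3.13 and 3.27 in LSK cells, a 2.07-fold lower level at day 10 in CD45-negative cells. In both genes the CD45-negative arrays lay above both LSK arrays. Pcna, the sliding clamp, stood at 6.44 in CD45-negative cells at day 10 and 7.33 at day 0, and at 5.37 and 5.56 in LSK cells. It was 1.85-fold lower at day 10 in CD45-negative cells, and Lig1, the ligase that seals Okazaki fragments, was 1.84-fold lower.

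Subunits of a fork enzyme did not all differ alike. Pole2, the second subunit of polymerase epsilon, was 1.98-fold lower in CD45-negative cells at day 10 (0.72 at day 10 and 1.71 at day 0), whereas Pole, its catalytic subunit, differed by -0.15. Prim2, the large primase subunit, differed by -0.39, and the difference of Prim1 minus that of Prim2 was -0.66. Of the clamp loader genes, Rfc4 was 1.53-fold lower, Rfc5 differed by -0.05 and Rfc3 by 0.27, the last 2 within spot error. Pold1, the catalytic subunit of polymerase delta, had the highest difference at the fork (0.39), with 5.32 in CD45-negative cells at day 10 and 4.93 at day 0, also within spot error, and its other probe gave 0.24. The subunits of polymerase alpha, Pola1 and Pola2, differed by -0.44 and -0.61. The single-strand binding genes Rpa1 and Rpa2 differed by -0.90 and -0.58, but the other 2 probes of Rpa1 gave -0.25 and -0.43, within spot error.

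Nucleotide supply had the lowest median of the members' roles between days in CD45-negative cells, -1.47 over 4 genes. The 8 further nucleotide genes of the pathway, 5 of them measured on both days, had a median of -0.54 (-0.79 to 1.22). Of the 4 members, 3 were at least 2-fold lower, beside 17.9% of all measured genes. Tk1, the thymidine kinase of the salvage pathway, stood at 3.63 in CD45-negative cells at day 10 and 5.84 at day 0, and at 4.07 and 3.88 in LSK cells at day 10 and day 0. It was 4.63-fold lower at day 10 in CD45-negative cells, the largest fold of the 38 genes, and its level there at day 10 lay below both LSK arrays. Rrm2, the regulated small subunit of ribonucleotide reductase, stood at 3.45 and 5.15 in CD45-negative cells at day 10 and day 0, and at 2.93 and 2.91 in LSK cells. Its fold in CD45-negative cells was 3.25, lower at day 10, and both of its probes gave nearly the same log2 difference (-1.70 and -1.66).

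Tyms, thymidylate synthase, stood at 4.38 in CD45-negative cells at day 10 and 5.63 at day 0, and at 4.06 and 3.76 in LSK cells, and was 2.37-fold lower at day 10 in CD45-negative cells. Rrm1, the large and more stable subunit of ribonucleotide reductase, was 1.91-fold lower (4.13 at day 10 and 5.06 at day 0) and stood at 4.06 and 4.10 in LSK cells. The difference of Rrm2 minus that of Rrm1 was -0.77. Of the 3 chromatin genes none reached 2-fold: the chromatin assembly subunits Chaf1a and Chaf1b differed by -0.56 and -0.49 in CD45-negative cells, and Uhrf1, which reads the hemimethylated DNA left by replication, by -0.16. The role medians in CD45-negative cells were -0.78 for licensing, -0.63 for firing, -0.61 for the fork and -0.49 for chromatin.

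In LSK cells the replication genes stood at nearly the same level at day 10 and at day 0. Their median difference was -0.02, beside -0.01 for all 16408 measured genes, with 18 genes higher at day 10 and 20 at or below their day 0 level, among them Cdt1 with equal levels. None of the 38 genes was at least 2-fold lower or higher, where 2.68% of all measured genes were lower and 1.44% higher; against so low a background a count of 0 in 38 genes is not a result about them. The smallest and the largest difference were -0.64 for Cdc7 and 0.35 for Prim2. By the brightest probe of each gene, Cdc7 alone lay outside spot error. Its other probes gave 0.30 and 0.03, so its probes did not share a direction. The probes also disagreed in direction for Cdc6, Gins1 and Rrm2. For Cdc6 the brighter probe gave 0.01, and the other gave -0.64, outside spot error. Other differences near the bounds of spot error were those of Chaf1a (-0.45), Mcm10 (-0.44) and Cdc45 (-0.40) among the lower ones and Tyms (0.30) and Mcm7 (0.29) among the higher ones. By role the medians were 0.00 for licensing, -0.40 for firing, -0.10 for the fork, 0.10 for nucleotide supply and 0.01 for chromatin.

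Set beside each other gene by gene, the difference between days was lower in CD45-negative than in LSK cells for 34 of the 38 genes, by a median of -0.67 log2 units. The median differences of all measured genes were 0.19 in CD45-negative and -0.01 in LSK cells, and the gene-by-gene count was not taken over all genes. Scaled to the spike-in probes, the members' medians were 2.63 in CD45-negative and -0.19 in LSK cells, so the direction depends on the scaling. The difference between the populations has no test. No gene lay outside spot error in opposite directions in the CD45-negative and the LSK cells.

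The populations themselves were compared at each day as LSK minus CD45-negative cells. At day 0, in healthy mice, the replication genes were lower in LSK cells: the median difference was -0.78, beside 0.08 over 14552 measured genes, and 33 of 38 genes were lower. At least 2-fold lower in LSK cells were 15 genes (39.5%), against 17.7% of all measured genes, and none was at least 2-fold higher, against 21.8%. Scaled to the spike-in probes, the median became 0.96, so this direction too depends on the scaling, while the gap of -0.86 to the median of all genes does not. The largest folds were those of Orc1 (7.72-fold lower in LSK cells), Cdc6 (5.60-fold), Pole2 (5.21-fold), Rrm2 (4.72-fold) and Cdc45 (4.65-fold). Pold1, Pole, Rfc5, Cdc7 and Rpa2 were the 5 genes not lower in LSK cells, with log2 differences of 0.06 to 0.24, all within spot error. The direction of Cdc7 turned with the probe, since its other 2 probes gave -0.90 and -0.64, lower in LSK cells. Of the members' roles, nucleotide supply again had the lowest median (-1.91), followed by licensing (-0.82), the fork (-0.72), firing (-0.67) and chromatin (-0.37). The further nucleotide genes had a median of -0.52 over 5 measured.

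At day 10 the populations lay closer together for 30 of the 38 genes, a count that was not taken over all genes. Smaller shares of all measured genes were also at least 2-fold apart at day 10 (11.1% higher and 12.6% lower in LSK cells). At day 0 those shares were 21.8% and 17.7%, so lying closer at day 10 is not particular to these genes. The median difference of LSK minus CD45-negative cells was -0.19, beside 0.01 over 15848 genes, and 27 genes were lower in LSK cells and 11 higher. At least 2-fold lower in LSK cells were 5 genes (13.2%), close to the 12.6% of all measured genes and so not a result about these genes, and none was at least 2-fold higher, against 11.1%. The 5 were Cdc45 (4.77-fold), Rfc3 (3.39-fold), Gins2 (2.57-fold), Pole2 (2.32-fold) and Pcna (2.10-fold). Cdc45 stood at -2.53 in LSK cells at day 10 and -2.13 at day 0, against -0.27 in CD45-negative cells at day 10 and 0.09 at day 0. The LSK level of Cdc45 was thus lower at both days by much the same amount, and Rfc3 (-1.06 and -0.96 in LSK cells, against 0.70 and 0.42 in CD45-negative cells at day 10 and day 0) was also lower in LSK cells at both days. Orc1 and Tk1, with the largest differences between days in CD45-negative cells, differed between the populations at day 10 by -0.69 and 0.44. The sign of the median at day 10 is not settled, since scaling to housekeeping genes made it 0.19. Scaled to the spike-in probes, the median was -1.97 at day 10 and 0.96 at day 0. Whether the populations lay closer at day 10 thus depends on the scaling too.

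**Figure D3:**
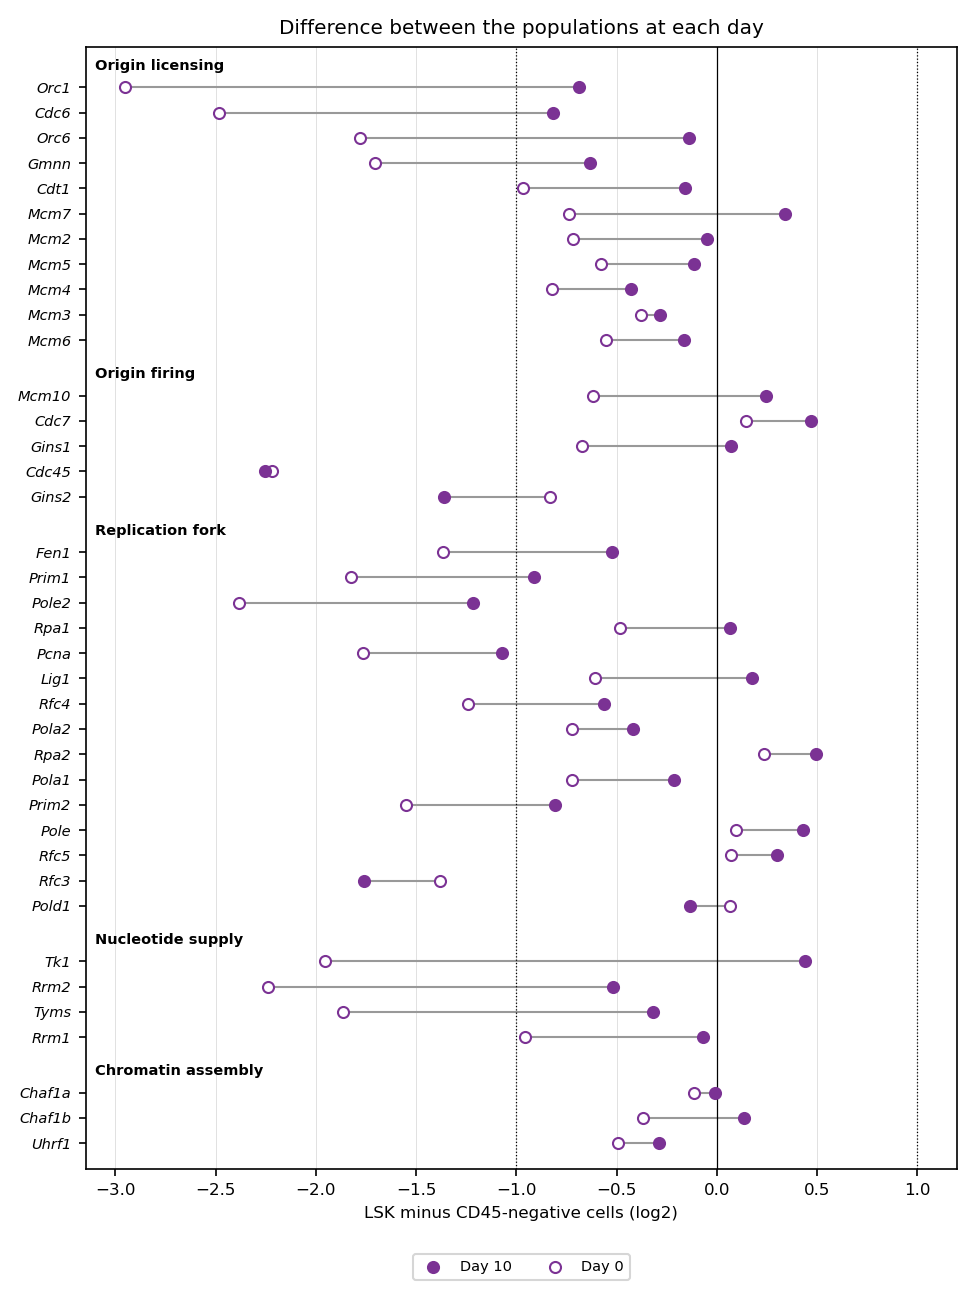
LSK minus CD45-negative cells (log2, horizontal axis) for each replication gene at day 10 (filled) and day 0 (open), joined by a line, with no error bar and with dotted lines at 2-fold. For 30 of the 38 genes the point of day 10 lies nearer 0 than that of day 0; Cdc45, Rfc3, Gins2, Pole2 and Pcna lie left of the dotted line at -1 on day 10.

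Members with and without an E2F word had overlapping differences between days. In CD45-negative cells the 13 members with a word had a median difference of -0.71, with values of -2.03 to 0.39, and the 19 with a window and no word had a median of -0.90, with values of -2.21 to -0.05. Tk1, Rrm2 and Tyms, at least 2-fold lower, had no word in their windows, and Mcm6, with 3, differed by -0.14. Of the 46 other replication and E2F genes with a window, 14 (30.4%) held a word. The CCAAT box, searched as CCAAT on both strands, was in the windows of 59.4% of the members, 43.3% of the genes above background on all 4 arrays and 41.1% of all genes. The cell cycle element CHR, searched as TTTGAA on both strands, was in those of 12.5% of the members, 14.6% of the genes above background on all 4 arrays and 20.2% of all genes.

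A list of 56 further genes of the pathway was lower at day 10 in the CD45-negative cells too, and level in the LSK cells. In CD45-negative cells their median difference between days was -0.71 over 53 measured genes. At least 2-fold lower at day 10 were 17 and higher 2, beside 17.9% and 23.6% of all measured genes. In LSK cells the median was 0.07 over 55 genes, with 0 at least 2-fold lower and 1 higher. Beside 2.68% and 1.44% of all measured genes, these counts are not a result about the list. The lowest differences in CD45-negative cells were those of the E-type cyclins and an E2F factor: Ccne2 (-2.94, with -2.74 for its other probe), E2f4 (-2.61) and Ccne1 (-2.12, with -2.31). Cyclin E activates Cdk2 at the entry to S phase, and E2f4 is known mainly as a repressor in resting cells. The 13 E2F, retinoblastoma-family and cyclin E genes had a median of -1.68 in CD45-negative cells. Of the 13, 8 were at least 2-fold lower, beside 17.9% of all measured genes. Among the 8 were activators of S-phase genes (E2f1 and E2f2) and repressors (E2f4 and Rb1). Rbl2 was the only 1 of the 13 that was higher at day 10 (0.85).

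The highest differences of these further genes in CD45-negative cells belonged to Samhd1 (1.22), an enzyme that breaks down deoxynucleotides, Pold4 (1.04), the smallest subunit of polymerase delta, and Mcmbp (0.90), which binds the Mcm proteins. Rrm2b, the ribonucleotide reductase subunit used outside S phase, was above background only at day 10 there and was at least 3.03-fold higher. Samhd1 stood at 2.88 in CD45-negative cells at day 10 and 1.66 at day 0, against the direction of the nucleotide-making enzymes Tk1, Rrm2 and Tyms. In LSK cells the highest were Ticrr (1.02), an origin firing factor whose other probe gave 0.20, Rnaseh2a (0.74) and Samhd1 (0.73), and the lowest Cdk2 (-0.32), E2f3 (-0.32) and Orc5 (-0.30). The other probes of E2f3 gave 0.14 and 0.16.

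Mki67, the gene of the proliferation marker Ki-67, was lower at day 10 in the CD45-negative cells as well. It stood at 6.19 in LSK cells at day 10 and 6.02 at day 0, and at 6.70 in CD45-negative cells at day 10 and 8.96 at day 0. Its difference in CD45-negative cells was -2.25, with -3.15 for its other probe, beside 0.16 in LSK cells.

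**Figure D4:**
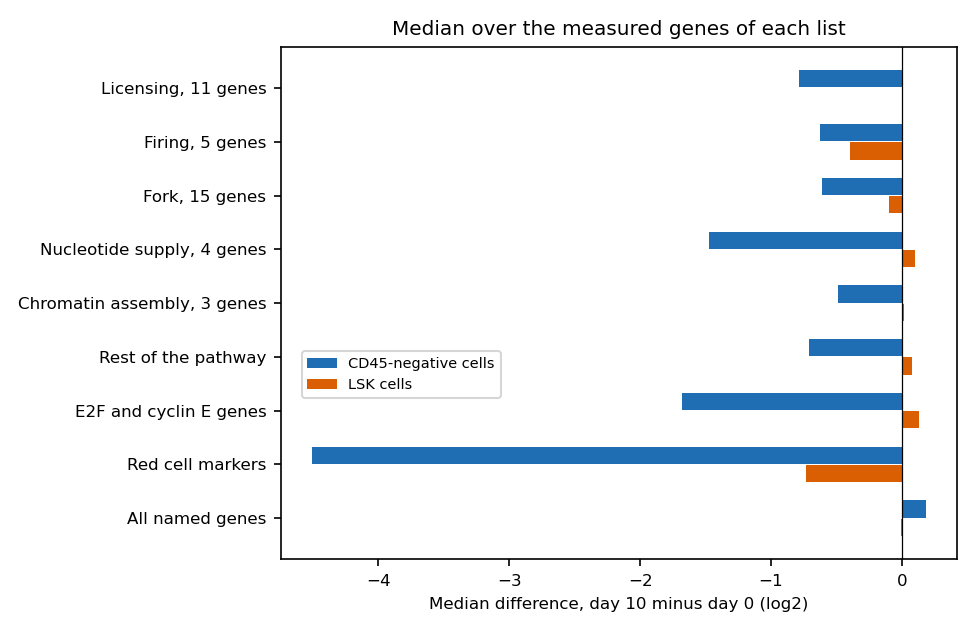
Median difference between days (day 10 minus day 0, log2, bars from 0) over the measured genes of each role, of the further 56 pathway genes, of the 13 E2F, retinoblastoma-family and cyclin E genes among them, of 18 red cell markers and of all named genes, in CD45-negative and LSK cells. The red cell markers have the longest bar in CD45-negative cells (-4.51, with 5 of 18 probes saturated at day 0), and nucleotide supply (-1.47) the longest of the 5 roles.

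The RNA levels of cell type markers also differed between days in the CD45-negative sort. All 18 red cell markers were above background there on both days, and at day 10 each was lower by at least 2-fold, beside 17.9% of all measured genes. The median difference of the 18 markers was -4.51. Of the 18, 5 were saturated at day 0 (Hba-a1, Hbb-bt, Alas2, Slc4a1 and Eraf), and the 13 others, led by Epb42 (-5.39), had a median of -4.73. The summed level of all 18, compressed by the saturated probes, was 9.19 at day 10 and 11.95 at day 0 on the log2 scale, and that of the 13 others was 5.91 and 10.23. The sums of all 18 stood against 5.19 and 6.01 in LSK cells at day 10 and day 0. Of the 14 measured there, 4 were at least 2-fold lower, beside 2.68% of all measured genes. T and NK cell markers went the other way: their summed level in CD45-negative cells was 7.07 at day 10 and 2.75 at day 0, with 12 and 5 of 13 genes above background. Plasma cell markers had sums of 8.19 and 4.50, and Ptprc, the gene of CD45 itself, was 2.48 log2 units higher at day 10 in these cells. Which form of CD45 was gated out is not settled, so whether all these cells lacked the protein is not known.

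Stromal markers, which should define the sort, had a summed level of 3.94 in CD45-negative cells at day 10 and 7.18 at day 0, with 11 and 14 of 16 above background, and megakaryocyte markers 0.78 and 4.94. Neutrophil and B cell markers had sums of 10.02 and 9.38 at day 10 and of 10.27 and 8.98 at day 0, which saturated probes such as S100a9 and Vpreb1 compress. Their median differences were 1.08, with 7 of 12 genes at least 2-fold higher, and 1.33, with 5 of 9 measured genes at least 2-fold higher. Of all measured genes 23.6% were at least 2-fold higher. The other 5 of the 12 neutrophil genes were lower at day 10, among them Elane (-0.97), Mpo (-0.56) and Prtn3 (-0.07), not saturated in these cells. Leaving out the probes saturated on either array, chosen after seeing the data, gave sums at day 10 and day 0 of 9.29 and 8.27 for neutrophil and 6.31 and 4.93 for B cell markers. Endothelial markers summed to 1.90 and 1.25, with 5 and 7 of 9 above background. Of the 5 measured on both days, 3 were higher and 2 lower at day 10. The replication genes themselves summed to 9.73 in CD45-negative cells at day 10 and 10.43 at day 0, and to 9.55 and 9.51 in LSK cells. Whether a shift in cell types had a part in the differences of the replication genes was not tested. Scaled to the spike-in probes, each difference between days in CD45-negative cells gained 3.36. Markers lower at day 10 by less than that thus became higher. In LSK cells the sums of the sort's own markers, among them Kit and Ly6a, were 7.25 at day 10 and 7.45 at day 0, while plasma cell markers had 4.73 and 7.78 (4.23 and 4.71 without Jchain), and megakaryocyte markers 3.86 and 4.95, with the replication genes level.

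On the arrays, 56.6% of probes were well above background in LSK cells at day 10 and 54.5% at day 0, and 52.0% in CD45-negative cells at day 10 and 47.6% at day 0. All 4 arrays were on 1 slide, so no slide effect separates the groups. The median of the replication genes under every processing setting tried kept within -0.19 and 0.05 in LSK cells. In CD45-negative cells it kept within -1.02 and -0.27 except after the shift by spike-in probes, which gave 2.63.

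**Figure D5:**
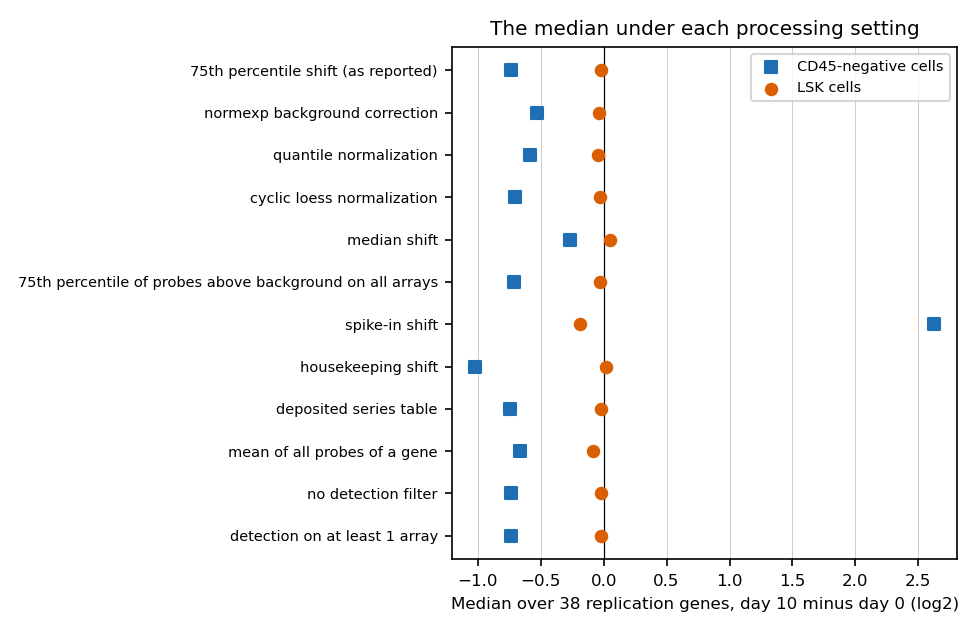
Median difference between days (day 10 minus day 0, log2, horizontal axis) over the 38 replication genes under each processing setting, in CD45-negative and LSK cells, 1 point per setting. The LSK points stay near 0, and the CD45-negative points lie below 0 except after the spike-in shift (2.63).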

How the data were processed

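Total RNA (500 ng a sample, per the labels) was labelled with Cy3 after oligo-dT priming. Per the submitters' processing notes and the file headers, the authors' scans went through Agilent Feature Extraction (version 10.5.1.1 in the headers), which gives the deposited spot intensity: a raw mean, a local background and a processed signal with background subtracted. Columns of codes in the deposited spot files (unit other) mark control spots, outliers, saturation and detection. Values in the deposited series table are log2, equal within 0.001 to the log2 processed signal minus a constant for at least 99.977% of probes, with column medians of -3.29 (LSK, day 10), -3.21 (LSK, day 0), -3.71 (CD45-negative, day 10) and -3.24 (CD45-negative, day 0); its scale and direction follow from this match and its centring is near the 75th percentile.

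After control and outlier spots were left out, log2 processed signals were averaged per probe, and each array was shifted by its 75th percentile over 61307 probes. Gene names came from the spot files, updated through RefSeq accessions for 28136 of 40628 gene probes. A gene was represented by its probe of highest mean, and its difference counted as measured if both arrays flagged that probe as well above background. Otherwise a bound was taken against the lowest level called above background. With 1 array a group there is no test, and the number of arrays limits the precision; an additive model of population and day would leave 1 residual degree of freedom and was not run. The calculations used Python 3.11.15 with pandas 2.3.3, and limma 3.58.1 in R 4.3.3 for normexp (offset 50), quantile and cyclic loess normalization. The 11 alternatives change the background correction, the scaling, the choice of probe and the detection filter. The scripts were tested on simulated data with known differences.

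The members and the lists were chosen with earlier results of these data known. The text names every member, the 3 largest differences between days each way of the further pathway genes, Mki67, and of each marker list the sums and leading genes described. Rrm2b, Ptprc, the further origin recognition subunits, and Rbl2 and the other E2F genes named beside it were chosen after their values were seen. The protein sequences were not used here, nor the sequences of the probes.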

Additional observations from a re-analysis of the deposited data

How the results depend on the processing

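The 11 alternatives left the median of the 38 genes between days in LSK cells within 1 SD of replicate spots of its value of -0.02 (from -0.19 to 0.05), with no gene at least 2-fold apart. In CD45-negative cells, the median of -0.73 became -0.27 after a median shift, -1.02 after a shift to 13 housekeeping genes and 2.63 after the spike-in shift, and the other 8 settings gave -0.74 to -0.53. At least 2-fold lower there were 10 genes, but 4 with normexp, 4 after the median shift, 19 after the housekeeping shift and 0 after the spike-in shift, where all 38 were higher. Of all 14509 measured genes, 2591 were at least 2-fold lower, 1999 with normexp, 1685 after the median shift and 3399 after the housekeeping shift. After the spike-in shift 116 were lower and 13761 higher. With normexp and after the median shift the members' share was no larger than that of all genes. For LSK minus CD45-negative cells the median at day 0 was -0.78, and 0.96 after the spike-in shift, with 1 gene at least 2-fold lower and 19 higher instead of 15 lower. Of all 14552 measured genes, 564 were lower and 11216 higher after that shift. At day 10 the members' median was -0.19, but -0.60 after the median shift, 0.19 after the housekeeping shift and -1.97 after the spike-in shift, with 10, 2 and 38 genes at least 2-fold lower instead of 5. Of all 15848 measured genes, 3853, 1144 and 13290 were lower under these 3 settings, instead of 2003. The cause was not tested, beyond that each of these 3 settings moves all genes of an array alike.

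After the spike-in shift the differences in CD45-negative cells were 1.33 for Orc1, 1.98 for Orc6, 1.70 for Cdc6, 2.10 for Gmnn, 2.06 for Mcm10, 2.31 for Prim1, 2.28 for Fen1, 1.66 for Rrm2, 2.11 for Tyms and 1.15 for Tk1. Likewise LSK minus CD45-negative cells at day 0 became 0.041 for Gmnn, 0.19 for Prim2, 0.36 for Rfc3, 0.50 for Rfc4 and 0.38 for Fen1. That shift moved the median of all genes by 3.36 between days in CD45-negative cells, and by 1.74 at day 0 and -1.78 at day 10 between the populations. Of all genes at least 2-fold apart between days in CD45-negative cells, 56.9% were higher at day 10, but 76.4% after the median shift, 40.8% after the housekeeping shift and 99.2% after the spike-in shift. For LSK minus CD45-negative cells the share higher was 55.2% at day 0 and 46.7% at day 10, and 95.2% and 0.725% after the spike-in shift, while at day 10 it was 17.97% after the median shift, 74.6% after the housekeeping shift and 33.8% with cyclic loess. In LSK cells it was 35.0% between days, 45.5% after the median shift and 18.2% after the spike-in shift.

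Leaving out the spike-in shift, 29 of the 38 genes kept their sign between days in CD45-negative cells, 30 in LSK cells, 36 between the populations at day 0 and 18 at day 10. Without the detection filter, the gap of the members to all genes in CD45-negative cells was -0.08, not -0.92, since dim probes not above background enter the median of all genes. No paired analysis was possible because each group has 1 array and the replicate number is only a name. No group allows leaving out a replicate. All members were above background, so signal did not limit which could be compared.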
